A study of Macaca mulatta with 45 samples.

Results

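The hippocampus of rhesus macaques was compared between animals that had received total body irradiation (TBI) years earlier and control animals, across all genes. The 10 libraries compared were those labelled as hippocampus of a TBI or a control animal, 5 of each, of 45 libraries in the series. The rest of the series held 5 hippocampus libraries of animals given fractionated whole-brain irradiation (fWBI) and 30 libraries of prefrontal cortex and deep white matter from the same 15 animals. TBI was a single dose of 6.75 Gy in animals 1 and 2, 7.2 Gy in animals 3 and 4 and 8.05 Gy in animal 5, given 6 to 9 years before necropsy. The controls were not unirradiated: each had received 10 Gy to the thorax, with a labelled brain dose of 0.1 Gy. The fWBI animals had received 40 Gy to the brain in 8 fractions of 5 Gy, 12 months before necropsy. Age at irradiation and at necropsy, sex, hippocampal subfield and the time from control irradiation to necropsy were not used here. Each library was made from total RNA of homogenised tissue of 1 animal, after the vessels had been flushed with saline and ribosomal RNA removed. In such bulk RNA, fewer cells of a type and less RNA per cell cannot be told apart.

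The hippocampus encodes new memories. Granule cells of its dentate gyrus pass signals to pyramidal cells of the CA fields, and in adult mammals the gyrus keeps a small pool of dividing precursors that can make new granule cells. Those precursors, the precursors of the myelin-forming oligodendrocytes, the lining of small vessels and the resident immune cells, the microglia, are the cell populations of the brain best known to react to ionising radiation. Choroid plexus and ciliated ependyma lie against the hippocampus along the lateral ventricle and can enter a dissected block.

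Libraries held 7356658 to 10211144 counts in controls and 9176522 to 10637892 in TBI animals; 4 of the 5 controls lay below every TBI library, and control animal 3 lay within the TBI range. Neurons of the dentate gyrus were represented in every library: PROX1, the transcription factor of granule cells, was at 61.4, 32.3, 46.4, 70.1 and 115 CPM (reads scaled to a common library size) in control animals 1 to 5 and at 63.7, 47.8, 76.8, 37.1 and 43.4 CPM in TBI animals 1 to 5. C1QL2, a protein that granule cells release at their terminals, was at 52.5, 66.0, 36.3, 104 and 71.5 CPM in controls and 53.5, 90.6, 65.7, 63.6 and 91.7 CPM in TBI animals. Both ranges overlapped between the groups. Control libraries differed more among themselves than TBI libraries did. The SD of log2 CPM over animals was larger in controls for 72.1% of the genes tested, with a median SD of 0.255 in controls and 0.181 in TBI animals. The root-mean-square log2 distance between libraries had a median of 0.547 between 2 controls, 0.442 between 2 TBI animals and 0.528 between a control and a TBI animal. Control animals 2 and 3 stood apart in markers of choroid plexus and of myelin, with values given beside the lists below.

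The first question was which single genes differed between TBI and control hippocampus. Of 15357 genes tested, 0 passed an adjusted p of 0.05 (0%) in edgeR's quasi-likelihood test on the 15 hippocampus libraries, and the smallest adjusted p was 0.151. At an unadjusted p under 0.05 stood 1661 genes (10.8%), of which 737 were higher (4.8% of those tested) and 924 lower (6.02%) after TBI. The 5 TBI values all lay above the 5 control values for 213 genes (1.39%) and all below them for 136 (0.886%). Those shares are the background against which the gene groups below are read. The median log2 fold change over all genes was -0.01 and the median standard error (SE) 0.151. Other tools gave other counts: DESeq2's test passed 60 genes (0.391%; 37 higher, 23 lower), and 1709 had an unadjusted p below 0.05, and limma-voom with quality weights passed 1 gene, while 2167 had an unadjusted p below 0.05. No gene is therefore called here as different, and "higher" and "lower" below describe fitted values. They are log2 fold changes of TBI over control with their SE, n = 5 animals a group.

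Among genes with higher values, the 15 with the smallest p all had TBI values that did not overlap the controls. The smallest p belonged to RBM46, an RNA-binding protein known for its part in germ cells. It was at 1.73, 3.21, 1.89, 1.24 and 2.05 CPM in control animals 1 to 5 and at 9.25, 4.66, 6.82, 8.94 and 3.99 CPM in TBI animals 1 to 5, a log2 fold change of 1.72 ± 0.27 (edgeR adjusted p = 0.151). Its lowest TBI value, in animal 5, was above its highest control value, in animal 2. RBM46 passed edgeR's threshold when control animal 2 or TBI animal 5 was left out (adjusted p = 0.0411 and 0.0397). The next genes differed by far less but with little spread. NAP1L1, a histone chaperone, was at 105, 99.7, 113, 99.5 and 118 CPM in controls and 136, 140, 129.5, 135 and 139 CPM in TBI animals, a log2 fold change of 0.34 ± 0.06. OXR1, a protein that protects cells against oxidative damage, was at 434, 413, 386, 444 and 414 CPM in controls and 542, 539, 512, 522 and 502 CPM after TBI (0.32 ± 0.06). TDP2, the enzyme that removes trapped topoisomerase II from DNA ends, was at 68.3, 56.6, 64.7, 60.5 and 66.5 CPM in controls and 82.9, 83.5, 79.4, 76.5 and 80.1 CPM after TBI (0.35 ± 0.07). In NAP1L1, OXR1 and TDP2 the TBI animals lay close together and above every control. Choosing genes by small p favours such separation.

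Of the other genes in that group, NMD3, an export adaptor of the large ribosomal subunit, differed by 0.34 ± 0.07, and PFDN4, a prefoldin subunit, by 0.41 ± 0.08. HMGCLL1, an enzyme of ketone body formation, differed by 0.57 ± 0.11, and NUDT6, a nudix hydrolase whose gene lies antisense to FGF2 in mammals, by 0.38 ± 0.09; strand use in counting was not given, so reads of overlapping genes could be mixed. YAF2, a partner of Polycomb proteins, differed by 0.37 ± 0.07, ACTR6, an actin-related protein of a chromatin remodeller, by 0.40 ± 0.09, and BCLAF1, a nuclear protein of splicing and transcription, by 0.29 ± 0.07. ASPH, a hydroxylase of the endoplasmic reticulum, differed by 0.33 ± 0.07, LGR4, a receptor for R-spondins in Wnt signalling, by 0.35 ± 0.08, and TCAIM, a mitochondrial protein, by 0.31 ± 0.07. The only immune receptor among the 15 was TLR8, a sensor of single-stranded RNA carried by myeloid cells. It was at 2.22, 1.95, 2.19, 1.92 and 1.93 CPM in controls and at 3.47, 3.55, 4.72, 5.37 and 2.83 CPM in TBI animals (0.96 ± 0.23), so its controls were nearly alike and its TBI values were scattered above them.

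Among genes with lower values, 11 of the 15 with the smallest p had groups that did not overlap. POMT2, an enzyme that starts the O-mannosyl chains of dystroglycan, was at 18.9, 20.9, 19.2, 21.0 and 21.6 CPM in controls and 16.0, 13.2, 15.7, 14.4 and 13.0 CPM in TBI animals, a log2 fold change of -0.49 ± 0.10. SBK1, a serine/threonine kinase of brain, was at 5.42, 3.32, 4.07, 4.53 and 5.07 CPM in controls and 2.50, 2.55, 2.62, 2.17 and 2.44 CPM after TBI (-0.86 ± 0.18). HDAC10, a deacetylase of polyamines, was at 15.2, 17.1, 13.1, 17.6 and 13.6 CPM in controls and 9.63, 11.7, 11.5, 9.13 and 12.3 CPM after TBI (-0.50 ± 0.12). In all 3 genes the highest TBI value was below the lowest control value. PER2, a repressor of the circadian clock, was at 20.2, 14.4, 30.8, 23.2 and 21.6 CPM in controls and 12.1, 12.5, 14.5, 14.6 and 13.2 CPM after TBI (-0.72 ± 0.16); only control animal 2 lay within the TBI range. APLP1, a neuronal relative of the amyloid precursor protein, was at 375, 307, 384, 344 and 322 CPM in controls and 245, 295, 287, 246 and 284 CPM after TBI (-0.35 ± 0.09), with no overlap.

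RNPEPL1, an aminopeptidase, differed by -0.69 ± 0.15, MYBBP1A, a nucleolar protein, by -0.50 ± 0.11, and MAU2, a loader of cohesin onto DNA, by -0.38 ± 0.09. DBF4B, a partner of the CDC7 kinase in DNA replication, differed by -0.98 ± 0.24, ZSWIM8, part of a ubiquitin ligase that degrades Argonaute, by -0.30 ± 0.07, and ZBTB40, a zinc finger protein, by -0.43 ± 0.11. PITPNM2, a lipid transfer protein, differed by -0.54 ± 0.13, CACNB1, a calcium channel subunit, by -0.34 ± 0.08, and IFT172, which carries cargo along cilia, by -0.43 ± 0.10; in these 3 and in PER2 the groups overlapped. RPLP2, a protein of the ribosomal stalk, differed by -0.45 ± 0.11, but ribosomal protein genes have near-identical copies to which reads can be split. The edgeR adjusted p of the 30 genes ran from 0.151 to 0.290; 27 of them passed DESeq2's test and 0 passed limma-voom. An exact two-sided permutation test of each gene's log2 CPM over the 10 libraries gave p from 0.00794, the smallest that 252 splits allow, to 0.0238. The genes were chosen for small p, so these values and the separation of their groups describe them only.

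**Figure D1:**
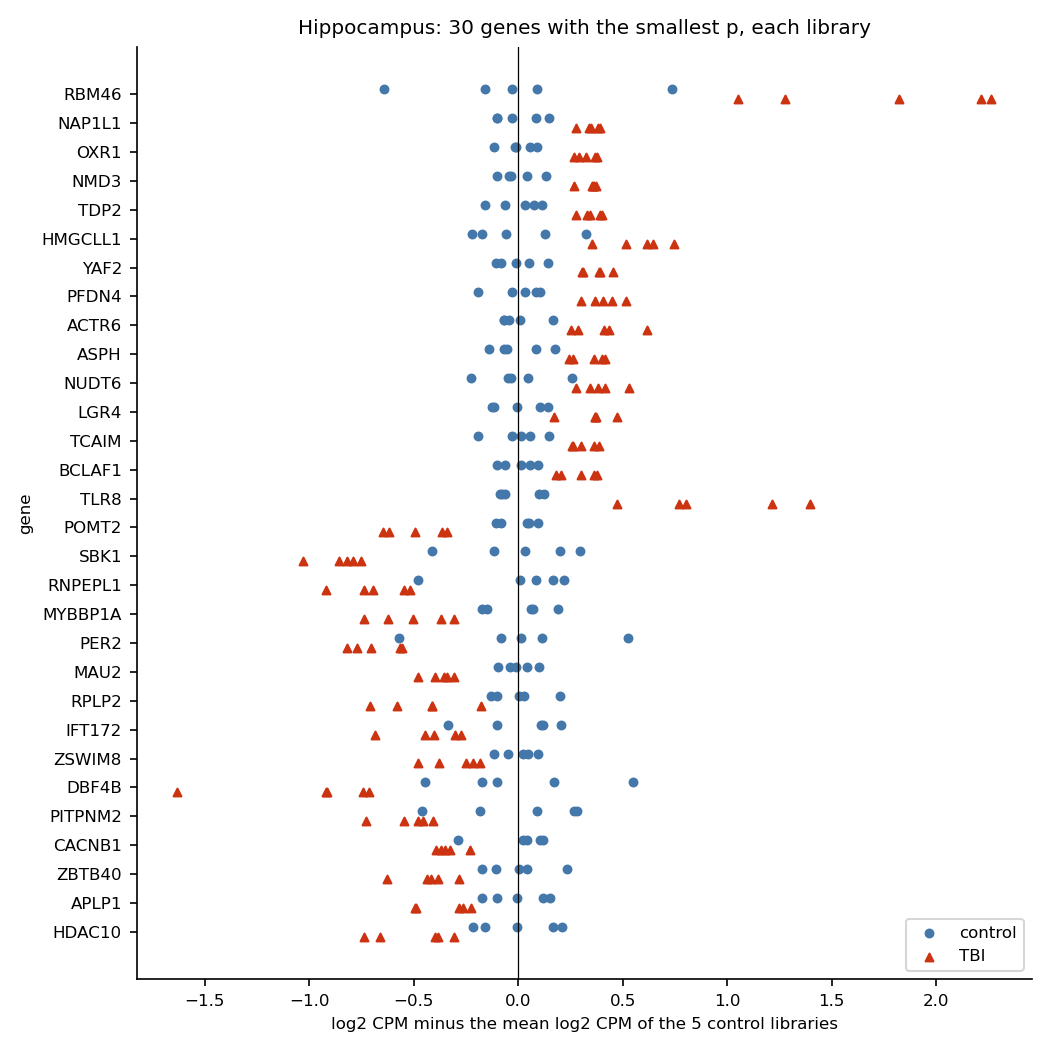
Each row is 1 gene and each symbol 1 hippocampus library (circles, 5 controls; triangles, 5 TBI animals), placed on the x axis by its log2 CPM minus the mean log2 CPM of the 5 controls; rows are ordered by p within the higher and the lower genes. TBI values lay apart from the controls in the 15 upper rows and in 11 of the 15 lower rows, mostly by less than 1 log2 unit, and RBM46 had the largest mean difference.

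Genes of choroid plexus and cilia gave the largest median differences of the gene lists examined, and those were far smaller without control animal 2. Of 14 listed markers of choroid plexus and ependyma, 8 were tested. All 8 were lower after TBI, 5 of them at an unadjusted p under 0.05 (62.5%, against 6.02% of all genes). Their median log2 fold change was -1.83, against -0.01 over all genes tested. FOLR1, the folate receptor of the choroid plexus, was at 5.79, 90.6, 7.65, 0.137 and 2.54 CPM in controls and 0.963, 0.111, 2.62, 6.02 and 0.195 CPM in TBI animals (-3.40 ± 1.36). KL, the ageing-related protein Klotho, was at 36.0, 269, 41.3, 26.5 and 23.5 CPM in controls and 17.6, 26.3, 20.5, 35.9 and 18.6 CPM in TBI animals (-1.74 ± 0.70). CLIC6, a chloride channel protein of this epithelium, differed by -1.54 ± 1.05. Control animal 2 was several times above every other library in FOLR1 and KL, and the groups overlapped in both. Without it FOLR1 differed by -1.04 and KL by -0.43. Summed over the 8 markers the level ran from 46.8 to 989 CPM in controls and from 36.9 to 112 CPM in TBI animals. The mean log2 CPM of the 8 markers was 3.10, 5.75, 3.15, 1.04 and 2.01 in control animals 1 to 5 and 1.39, 1.30, 2.29, 2.96 and 1.40 in TBI animals 1 to 5. Without control animal 2, 0 of the 8 stood at an unadjusted p under 0.05, 6 were lower, and the median was -0.45.

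Of 17 tested genes of motile and other cilia, 16 were lower and 10 stood at an unadjusted p under 0.05 (58.8%, against 6.02% of all genes), with a median of -0.84. Without control animal 2 the count was 2 and the median -0.51. This list shares FOXJ1 with the choroid plexus and ependyma list, so that gene is counted in both. FOXJ1, the master regulator of motile cilia, was at 3.70, 23.6, 8.35, 1.78 and 2.66 CPM in controls and 1.25, 2.00, 0.944, 3.29 and 3.12 CPM after TBI (-1.92 ± 0.77), and -2.16 to -0.98 when each animal was left out in turn. The dynein arm gene DNAH5 differed by -0.55 ± 0.33 and DNAH7 by -0.82 ± 0.32, the latter by -0.43 without control animal 2. DNAH9, another axonemal dynein, was at 7.39, 8.82, 12.6, 7.82 and 8.57 CPM in controls and 3.37, 4.66, 5.25, 5.55 and 6.53 CPM after TBI (-0.84 ± 0.22). It was the only member of the 17 whose groups did not overlap, and its highest control value was in animal 3. Members named here for an unadjusted p under 0.05 or for separated groups, beyond the first 3 of a list, were chosen after their values were seen. Whether the amount of ventricular lining in the block or RNA per cell lay behind these values was not tested.

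**Figure D2:**
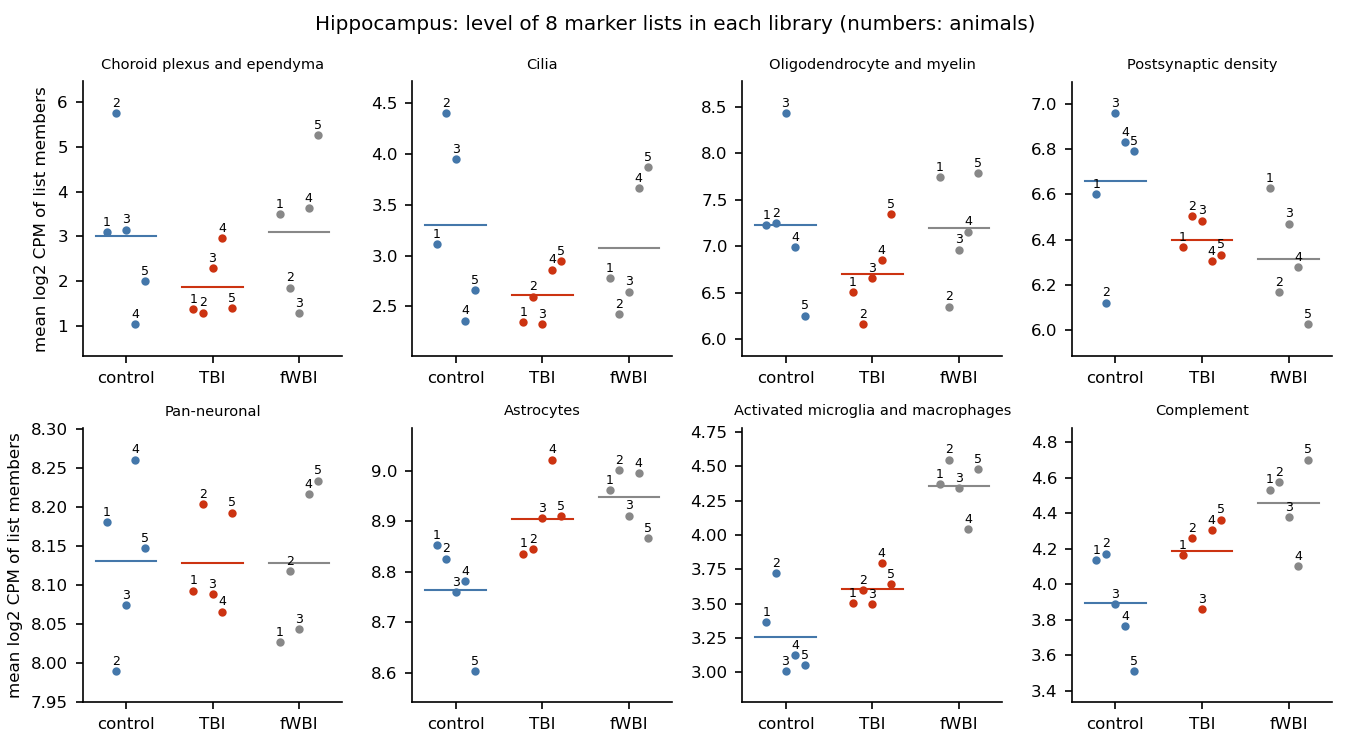
Each panel is 1 gene list; points are the mean log2 CPM of its tested members in each hippocampus library, labelled by animal, and lines are group means (5 controls, 5 TBI and 5 fWBI animals). Control animal 2 stood highest in the choroid plexus and cilia panels and control animal 3 in the myelin panel, while the pan-neuronal means of the groups were nearly level.

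Markers of mature oligodendrocytes, the cells that wrap axons in myelin, were lower in all 7 members tested of 12 listed, with a median of -0.62. At an unadjusted p under 0.05 stood 2 of them (28.6%, against 6.02% of all genes). MBP, the main structural protein of myelin, differed by -0.62 ± 0.37. MOBP, another myelin protein, was at 116, 118, 308, 90.4 and 49.9 CPM in controls and 59.7, 44.1, 58.1, 78.5 and 118 CPM in TBI animals (-0.93 ± 0.43). MYRF, the transcription factor of myelination, was at 23.8, 16.0, 86.1, 27.4 and 15.1 CPM in controls and 13.2, 10.7, 16.9, 17.1 and 20.3 CPM after TBI (-1.11 ± 0.46). Control animal 3 held the highest value of both genes, and the groups overlapped in both. Without that animal MOBP differed by -0.38 and MYRF by -0.39. The mean log2 CPM of the 7 markers was 7.22, 7.25, 8.43, 6.99 and 6.25 in controls and 6.50, 6.16, 6.66, 6.85 and 7.35 in TBI animals. Without control animal 3 the median was -0.23 and 0 stood at an unadjusted p under 0.05. Without control animals 2 and 3, an alternative added after the data were seen, it was -0.0037, with 4 of 7 lower.

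Oligodendrocyte precursors were represented by 11 tested genes, of which 10 were lower, with a median of -0.22. At an unadjusted p under 0.05 stood 3 of them (27.3%, against 6.02% of all genes). GPR17, a receptor that marks precursors about to differentiate, was at 8.50, 8.02, 12.0, 9.74 and 6.64 CPM in controls and 4.33, 5.10, 4.30, 5.65 and 6.14 CPM in TBI animals (-0.82 ± 0.27). The TBI values all lay below the controls, and the fold stayed within -0.90 to -0.68 when each animal was left out. PDGFRA, the growth factor receptor that defines these cells, was not lower (0.11 ± 0.08). CSPG4, their NG2 proteoglycan, differed by -0.33 ± 0.22 and OLIG2, a lineage transcription factor, by -0.13 ± 0.26. BCAN, the matrix proteoglycan brevican, was at 164, 166, 239.7, 176 and 160.2 CPM in controls and 129, 143, 164, 155 and 137 CPM after TBI (-0.32 ± 0.12), and by -0.19 without control animal 3. PCDH15, a protocadherin, differed by -0.52 ± 0.23, and by -0.29 without control animal 5, whose value of 84.8 CPM was the highest. After fWBI the same list had a median of -1.03 against the shared controls, and GPR17 differed by -2.50 ± 0.30.

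Astrocyte genes leaned the other way. Of 10 tested markers 9 were higher, 2 at an unadjusted p under 0.05 (20%, against 4.8% of all genes), with a median of 0.14. GLUL, the glutamine synthetase that clears transmitter glutamate, was at 828, 825, 754, 706 and 688 CPM in controls and 778, 1068, 1021, 1011 and 1007 CPM in TBI animals (0.36 ± 0.09). SLC1A3, the glutamate transporter GLAST, was at 696, 658, 670.2, 758 and 633 CPM in controls and 811, 768, 764, 807 and 814 CPM in TBI animals (0.21 ± 0.09). TBI animal 1 was the only one within the control range of GLUL, while SLC1A3 did not overlap. The water channel AQP4 differed by 0.14 ± 0.13 and the second glutamate transporter SLC1A2 by 0.05 ± 0.15. Over the 10 fits that each left out 1 animal, the list's median ran from 0.09 to 0.16.

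Genes of reactive astrocytes did not share this direction: 5 of 10 were higher and 5 lower, with a median of 0.0076. GFAP, the intermediate filament that defines reactive astrocytes, differed by -0.05 ± 0.18 and VIM, a second filament, by 0.14 ± 0.19. SERPINA3, an acute-phase protease inhibitor, was at 28.0, 51.2, 27.8, 8.51 and 9.06 CPM in controls and 99.3, 60.8, 22.6, 33.7 and 69.0 CPM in TBI animals (1.19 ± 0.45). TBI animals 3 and 4 lay within the control range and animal 1 was the highest. In the same TBI animals SERPINA3 differed by 2.46 ± 0.64 in prefrontal cortex and by 1.93 ± 0.36 in white matter.

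Among immune genes, markers of resting microglia showed no common direction while those of activated microglia and macrophages were mostly higher. Of 5 tested resting markers 2 were higher; P2RY12, the purine receptor that steers their processes, differed by -0.13 ± 0.16, SELPLG, an adhesion ligand, by -0.27 ± 0.20 and CSF1R, the receptor that keeps them alive, by 0.01 ± 0.18. Of 13 tested activation markers 10 were higher, 3 at an unadjusted p under 0.05 (23.1%, against 4.8% of all genes). The same 3 had groups that did not overlap, as did 1.39% of all genes in this direction. The median was 0.39, 0.17 to 0.52 when each animal was left out. The count at an unadjusted p under 0.05 then ran from 1 to 7, lowest without TBI animal 3 and highest without control animal 2. Over all genes the higher count was 679 without TBI animal 3 and 1079 without control animal 2, against 737 with every animal. LGALS3, the lectin galectin-3 of phagocytic cells, was at 5.67, 8.02, 7.55, 7.82 and 7.37 CPM in controls and 15.2, 11.3, 9.02, 12.1 and 13.8 CPM in TBI animals (0.76 ± 0.19). FCGR2A, an activating antibody receptor, was at 1.60, 1.49, 0.993, 1.37 and 0.604 CPM in controls and 2.02, 1.66, 3.25, 1.79 and 1.95 CPM after TBI (0.82 ± 0.31). LPL, the lipoprotein lipase that lipid-handling microglia express, was at 68.5, 59.8, 61.6, 38.5 and 61.6 CPM in controls and 89.6, 68.7, 119, 70.0 and 73.5 CPM after TBI (0.53 ± 0.19). The gap between the highest control and the lowest TBI animal was narrow in FCGR2A (1.60 and 1.66 CPM) and LPL (68.5 and 68.7 CPM). Hippocampal neurons express LPL too. The first members of the list gave no such separation: CD68, a lysosomal protein of phagocytes, differed by -0.04 ± 0.23, GPNMB by 0.64 ± 0.36, and TREM2, a lipid-sensing receptor, by -0.02 ± 0.25. Perivascular macrophage markers had a median of 0.29, with 5 of 8 higher; the mannose receptor MRC1 differed by 0.32 ± 0.13, CD163 by 0.42 ± 0.20 and LYVE1 by 0.35 ± 0.31.

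Complement genes were higher in 11 of 12 tested members, 3 of them at an unadjusted p under 0.05 (25%, against 4.8% of all genes). The median was 0.25 and ran from 0.14 to 0.32 when each animal was left out. C1QC, a chain of the recognition molecule C1q, was at 33.0, 48.4, 30.2, 26.5 and 19.8 CPM in controls and 38.5, 77.0, 33.6, 48.1 and 63.1 CPM in TBI animals (0.72 ± 0.24). C3AR1, the receptor for the fragment C3a, was at 5.05, 3.44, 3.38, 3.02 and 2.54 CPM in controls and 4.82, 7.99, 5.35, 6.50 and 5.75 CPM after TBI (0.80 ± 0.20). CFB, the factor B of the alternative pathway, was at 9.98, 8.48, 5.56, 5.35 and 6.16 CPM in controls and 12.4, 7.88, 7.55, 12.1 and 11.8 CPM after TBI (0.54 ± 0.21). The groups overlapped in all 3 genes, in C3AR1 only through control animal 1 and TBI animal 1. The proteases C1R and C1S differed by 0.24 ± 0.27 and 0.37 ± 0.22. MHC class II genes, which present antigen to T cells, were higher in 5 of 7 members with a median of 0.39, none at an unadjusted p under 0.05; CD74, the invariant chain, differed by 0.44 ± 0.37, the transactivator CIITA by -0.29 ± 0.38 and MAMU-DRB1 by 0.50 ± 0.33. MHC genes have near-identical copies, so reads can be split among them. The list's median was 1.59 after fWBI.

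Interferon-response genes were spread around 0, with 10 of 16 higher and a median of 0.12. IFIT1 differed by 0.02 ± 0.22, IFIT3 by 0.33 ± 0.17 and MX1 by 0.40 ± 0.27, all of them antiviral effectors. Cytokine genes had no common direction either (5 of 11 higher). CXCL10, a chemokine that draws T cells, was separated between the groups, on a few reads per control library: 0.246, 0.458, 0.397, 0.137 and 0.241 CPM in controls and 1.54, 0.555, 0.629, 1.41 and 0.779 CPM in TBI animals (1.67 ± 0.44). CCL2, a monocyte chemokine, differed by 0.64 ± 0.65 and CXCL12 by -0.23 ± 0.24. IL34, the neuronal ligand of CSF1R, was at 51.9, 45.6, 43.4, 40.7 and 45.4 CPM in controls and 42.2, 36.3, 30.1, 39.4 and 39.0 CPM after TBI (-0.28 ± 0.10).

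**Figure D3:**
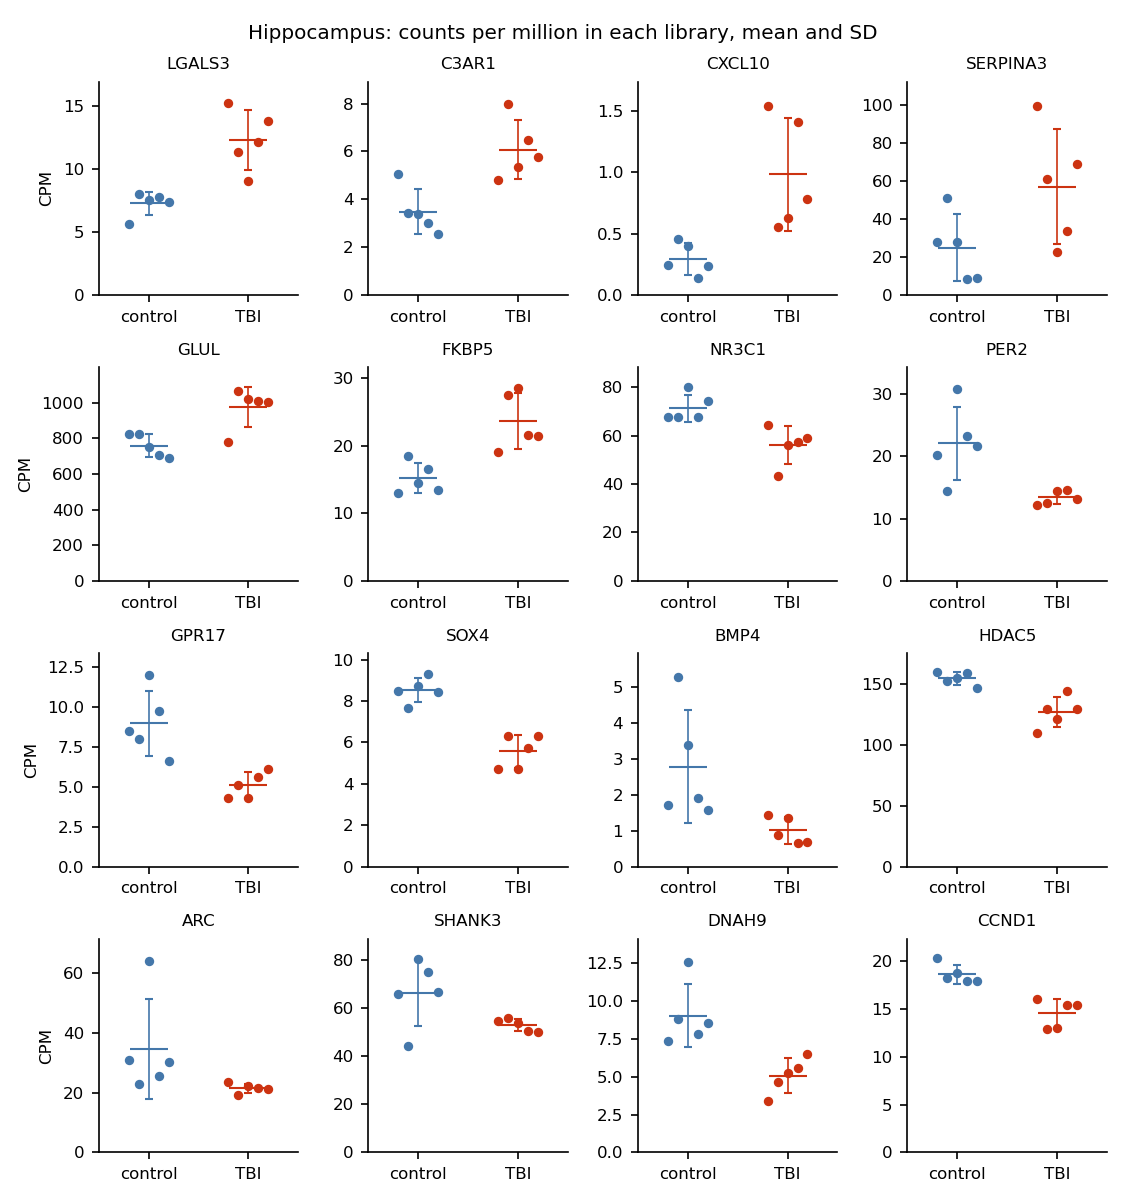
Each panel shows 1 gene on a linear CPM axis that starts at 0, with a point for each hippocampus library and the mean with its SD (5 controls, 5 TBI animals). LGALS3, CXCL10 and FKBP5 lay above every control, and NR3C1, GPR17, SOX4, BMP4, HDAC5, DNAH9 and CCND1 below every control, while C3AR1, SERPINA3, GLUL, PER2, ARC and SHANK3 overlapped.

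Endothelial genes differed little. Of 12 tested genes of endothelium and the blood-brain barrier 7 were higher, none at an unadjusted p under 0.05, with a median of 0.07. PECAM1, an adhesion molecule of vessel lining, differed by 0.24 ± 0.13, VWF, the clotting factor stored there, by -0.13 ± 0.34 and FLT1, a VEGF receptor, by -0.09 ± 0.16. Among pericyte and smooth muscle genes 5 of 9 were higher, with a median of 0.11. At an unadjusted p under 0.05 stood 2 of the 9, both higher (22.2%, against 4.8% of all genes). PDGFRB, the receptor of pericytes, differed by 0.11 ± 0.09 and RGS5, another pericyte marker, by -0.04 ± 0.17. The contractile genes ACTA2 and TAGLN had higher values: ACTA2 was at 17.4, 16.8, 11.8, 13.2 and 17.1 CPM in controls and 32.2, 26.4, 17.1, 15.5 and 18.9 CPM in TBI animals (0.53 ± 0.22), and TAGLN differed by 0.70 ± 0.31. Both leaned on TBI animals 1 and 2, and the folds were 0.35 for ACTA2 without animal 1 and 0.44 for TAGLN without animal 2.

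Genes of the postsynaptic density, the protein scaffold under glutamate receptors, were lower in 18 of 19 tested members, 7 at an unadjusted p under 0.05 (36.8% of the list, against 6.02% of all genes), with a median of -0.23. The first members of the list, the scaffolds DLG2, DLG3 and DLG4, differed by -0.02 ± 0.18, -0.16 ± 0.12 and -0.22 ± 0.17. SHANK3, a scaffold linked to autism, was at 65.9, 44.5, 80.5, 74.9 and 66.7 CPM in controls and 54.8, 55.7, 53.6, 50.5 and 50.2 CPM in TBI animals (-0.33 ± 0.13). DLGAP3, a partner of SHANK and DLG proteins, was at 76.8, 66.1, 110.2, 91.2 and 92.8 CPM in controls and 59.4, 78.2, 58.4, 60.6 and 70.0 CPM after TBI (-0.42 ± 0.12). SHANK1 was at 23.4, 10.4, 79.4, 59.5 and 46.0 CPM in controls and 17.5, 28.0, 21.1, 22.3 and 24.8 CPM after TBI (-0.95 ± 0.41). In SHANK3 and SHANK1 control animal 2 was lowest of all 10 libraries while the other controls, except animal 1 in SHANK1, lay above every TBI animal. Without control animal 3 SHANK1 differed by -0.62. NRGN, neurogranin, which buffers calmodulin in dendrites, differed by -0.47 ± 0.20, KALRN, a regulator of spines, by -0.26 ± 0.12 and HOMER2 by -0.21 ± 0.09 (-0.12 without control animal 1). The only member with a higher value was NLGN1, a neuroligin (0.08 ± 0.10). NRGN is also counted among the genes of excitatory neurons below.

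The count for this list depended on single animals of both groups. Its mean log2 CPM was 6.60, 6.12, 6.96, 6.83 and 6.79 in control animals 1 to 5 and 6.37, 6.50, 6.48, 6.30 and 6.33 in TBI animals 1 to 5, so 4 controls lay above the 5 TBI animals and control animal 2 below them. The number at an unadjusted p under 0.05 ran from 2 to 14 when each animal was left out, with 14 without control animal 2, 3 without control animal 3 or TBI animal 5 and 2 without TBI animal 4. The lower count over all genes moved too, from 924 with every animal to 1361 without control animal 2 and 713 without control animal 3. It was 777 without TBI animal 5 and 793 without TBI animal 4. The list's median ran from -0.36 to -0.20 when each animal was left out. Without control animals 2 and 3 it was -0.34, with 18 of 19 lower and 9 at an unadjusted p under 0.05.

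Glutamate receptor genes were lower in 16 of 22 members, with 2 at an unadjusted p under 0.05 (9.09%, against 6.02% of all genes). The median was -0.14, and -0.26 without control animal 2 and -0.06 without control animal 4. The AMPA receptor subunits GRIA1, GRIA2 and GRIA3 differed by 0.07 ± 0.13, 0.04 ± 0.08 and -0.11 ± 0.10. GRIN2C, an NMDA receptor subunit that astrocytes also express, was at 13.6, 14.9, 14.8, 14.7 and 18.8 CPM in controls and 9.25, 8.76, 10.7, 14.8 and 13.1 CPM in TBI animals (-0.44 ± 0.16), with TBI animal 4 within the control range. GRM3, a metabotropic receptor, differed by -0.33 ± 0.14. Presynaptic genes did not share this lean: 14 of 23 genes of synaptic vesicles were lower, with a median of -0.0083 that was 0.000348 under upper-quartile scaling, and none stood at an unadjusted p under 0.05. The fusion proteins SNAP25, STX1A and SYT1 differed by -0.00021 ± 0.08, 0.02 ± 0.10 and 0.17 ± 0.11.

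General neuronal genes were level between the groups, 7 of 13 higher and 6 lower, with a median of 0.0049. Only RBFOX3, the nuclear antigen NeuN, stood at an unadjusted p under 0.05: it was at 13.4, 12.8, 14.5, 14.9 and 15.5 CPM in controls and 9.05, 12.3, 11.2, 11.9 and 12.5 CPM in TBI animals (-0.32 ± 0.13), with no overlap. Genes of excitatory neurons were lower in 7 of 9 members with a median of -0.13, -0.28 without control animal 2 and -0.0062 without control animal 4, when 5 of 9 were lower. Their vesicular glutamate transporter SLC17A7 differed by -0.15 ± 0.37 and CAMK2A, the kinase of synaptic plasticity, by -0.26 ± 0.15. Interneuron genes were higher in 8 of 13 members with a median of 0.07; the enzymes of GABA synthesis GAD1 and GAD2 differed by 0.13 ± 0.11 and -0.07 ± 0.15 and the GABA transporter SLC32A1 by -0.12 ± 0.15.

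Neurons of the hippocampal fields had medians below 0 in the fit with all animals. Of 9 tested genes of dentate granule cells 5 were lower (55.6%, against 52.9% of all genes), none at an unadjusted p under 0.05. Their median was -0.13, and -0.28 without control animal 2 and 0.02 without control animal 5. PROX1 differed by -0.28 ± 0.33, C1QL2 by 0.15 ± 0.25 and C1QL3 by 0.04 ± 0.21. Of 10 tested genes of CA pyramidal cells 7 were lower, with a median of -0.19. At an unadjusted p under 0.05 stood 1 of them (10%, against 6.02% of all genes). Without TBI animal 2 the median was -0.30 with 5 at an unadjusted p under 0.05, and without control animal 4 it was -0.12 with 0. The lower counts over all genes in those 2 fits were 777 and 841, against 924 with every animal. WFS1, which marks CA1, was at 57.9, 48.2, 93.0, 70.8 and 55.7 CPM in controls and 39.8, 66.7, 42.4, 48.8 and 47.5 CPM in TBI animals (-0.41 ± 0.17), and -0.25 without control animal 3; FIBCD1 differed by -0.71 ± 0.48 and MPPED1 by -0.56 ± 0.30.

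Of 18 listed genes of neurogenesis and immature neurons 11 were tested and 8 were lower, with a median of -0.05. DCX, doublecortin, the microtubule protein of migrating young neurons, was at 23.8, 14.9, 30.7, 26.1 and 16.7 CPM in controls and 17.2, 21.2, 15.6, 18.5 and 16.5 CPM in TBI animals (-0.33 ± 0.18), and the groups overlapped. NEUROD1, a transcription factor of granule cell maturation, differed by -0.03 ± 0.19. SOX4, a transcription factor of immature neurons and of oligodendrocyte precursors, was at 8.50, 7.68, 8.74, 9.33 and 8.45 CPM in controls and 4.72, 6.32, 4.72, 5.74 and 6.33 CPM in TBI animals (-0.62 ± 0.17). SOX4 was the only member at an unadjusted p under 0.05, and its highest TBI value was below its lowest control value. It differed by -0.80 ± 0.17 after fWBI.

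Immediate early genes, which neurons switch on within minutes of activity, were lower in 7 of 9 members, with a median of -0.13. At an unadjusted p under 0.05 stood 4 of them (44.4%, against 6.02% of all genes). ARC, which regulates AMPA receptor uptake at active synapses, was at 30.9, 22.9, 64.0, 25.6 and 30.2 CPM in controls and 23.5, 19.2, 22.1, 21.5 and 21.2 CPM in TBI animals (-0.70 ± 0.23). EGR2, a zinc finger transcription factor, was at 2.34, 1.95, 9.93, 3.15 and 3.26 CPM in controls and 1.93, 2.00, 2.41, 1.88 and 1.27 CPM after TBI (-1.14 ± 0.42). Control animal 3 was the highest library in both genes, and the folds without it were -0.35 for ARC and -0.49 for EGR2. The nuclear receptors NR4A1 and NR4A2 differed by -0.75 ± 0.33 and -0.62 ± 0.28 (NR4A1 by -0.37 without control animal 3), and JUNB by -0.13 ± 0.14. Without control animal 3, 1 of the 9 stood at an unadjusted p under 0.05. Such genes also respond to anaesthesia and to the interval before tissue is frozen, which was not tested.

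Genes of stress hormone signalling had no common direction. The list of 8 tested genes had 3 higher and 5 lower members. At an unadjusted p under 0.05 stood 2 higher members (25%, against 4.8% of all genes) and 2 lower (25%, against 6.02%). FKBP5, the chaperone that glucocorticoids induce and that holds their receptor back, was at 13.1, 18.4, 14.5, 16.6 and 13.5 CPM in controls and 19.2, 27.5, 28.5, 21.6 and 21.5 CPM in TBI animals (0.63 ± 0.18). NR3C1, the glucocorticoid receptor itself, was at 67.5, 67.5, 79.9, 67.6 and 74.4 CPM in controls and 64.4, 43.4, 56.3, 57.4 and 59.0 CPM in TBI animals (-0.35 ± 0.12). Neither gene overlapped between the groups. NR3C2, the mineralocorticoid receptor that is abundant in hippocampus, was at 110, 82.7, 108, 98.9 and 109 CPM in controls and 87.3, 86.3, 88.4, 80.0 and 84.8 CPM after TBI (-0.25 ± 0.09), with control animal 2 within the TBI range. NFKBIA, the inhibitor of NF-kappa-B and a glucocorticoid target, differed by 0.33 ± 0.12. Other members had lower values: PER1 differed by -0.41 ± 0.25, SGK1 by -0.14 ± 0.22 and ZBTB16 by -0.15 ± 0.18. FKBP5 differed by 1.42 ± 0.30 in prefrontal cortex and 1.62 ± 0.34 in white matter of the same TBI animals, and by 0.20 ± 0.18 in fWBI hippocampus. Among 15 clock genes 10 were lower with a median of -0.04; ARNTL and CLOCK, the positive arm of the clock, differed by 0.0014 ± 0.09 and 0.01 ± 0.11, NPAS2 by -0.41 ± 0.21, and PER2 was the 1 gene at an unadjusted p under 0.05. Hour of necropsy was not used here.

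Genes of DNA methylation and chromatin were lower in 19 of 31 members (61.3%, against 52.9% of all genes), with a median of -0.09. At an unadjusted p under 0.05 stood 6 of the lower members (19.4%, against 6.02% of all genes) and none of the higher. HDAC5, a histone deacetylase of class II in neurons, was at 159.7, 152, 154, 159 and 147 CPM in controls and 109.9, 129, 121, 144 and 129.5 CPM in TBI animals (-0.29 ± 0.08), and was the only member whose groups did not overlap. DNMT3A, a de novo DNA methyltransferase, was at 26.9, 20.9, 38.5, 29.2 and 33.6 CPM in controls and 24.3, 20.7, 25.6, 21.8 and 23.3 CPM after TBI (-0.37 ± 0.13). DNMT1, the maintenance enzyme, differed by -0.15 ± 0.11 and DNMT3B by -0.29 ± 0.23. KMT2D, a histone methyltransferase, was at 36.9, 17.1, 114, 98.2 and 77.5 CPM in controls and 32.6, 45.3, 39.9, 28.0 and 37.1 CPM after TBI (-0.91 ± 0.40), with control animal 2 again the lowest library. KDM6B, HDAC4 and MBD1 differed by -0.73 ± 0.29, -0.38 ± 0.16 and -0.15 ± 0.07. The count at an unadjusted p under 0.05 ran from 2 to 10 when each animal was left out, highest without control animal 2 and lowest without control animal 3 or 5. Over all genes the lower count was 1361, 713 and 948 without control animals 2, 3 and 5, against 924.

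Years after TBI, the lists of p53 targets and of DNA repair genes had small medians. Of 12 tested targets of p53 8 were higher with a median of 0.06; the apoptosis gene BAX differed by 0.05 ± 0.12, BBC3 by 0.31 ± 0.36 and SESN1, a stress-induced sestrin, by 0.25 ± 0.08. SESN1 was the only one at an unadjusted p under 0.05 (8.33% of the list, against 4.8% of all genes). It was at 95.4, 101, 77.4, 85.9 and 87.7 CPM in controls and 111, 111, 118, 95.9 and 97.1 CPM in TBI animals, with overlap. Of 27 tested repair genes 15 were higher with a median of 0.05. At an unadjusted p under 0.05 stood 3 higher members (11.1%, against 4.8% of all genes), RAD50, MSH6 and BRCA2. PARP1 was the 1 lower member at that p (3.70%, against 6.02% of all genes). The checkpoint kinases ATM and ATR differed by 0.06 ± 0.07 and 0.22 ± 0.11, and BRCA1 by -0.22 ± 0.24. RAD50, part of the complex that senses double-strand breaks, was at 55.3, 46.9, 71.4, 57.1 and 62.1 CPM in controls and 76.6, 66.6, 77.0, 80.5 and 67.5 CPM in TBI animals (0.33 ± 0.11). PARP1, a sensor of strand breaks, was at 83.8, 90.8, 106, 107 and 97.3 CPM in controls and 81.5, 79.3, 80.0, 89.2 and 91.1 CPM after TBI (-0.20 ± 0.08). The groups overlapped in both genes. MSH6, a mismatch repair protein, differed by 0.17 ± 0.07 and BRCA2 by 0.58 ± 0.24, the latter by 0.37 without TBI animal 1.

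Proliferation genes had a median of 0.00084, and -0.000779 with DESeq2's size factors, with 8 of 15 higher. TOP2A and PCNA, of DNA replication, differed by 0.25 ± 0.30 and 0.17 ± 0.10, and MCM2 by -0.06 ± 0.17. CCND1, cyclin D1 of the step from G1 to S phase, was at 20.3, 18.2, 18.8, 18.0 and 18.0 CPM in controls and 16.1, 12.9, 13.0, 15.4 and 15.4 CPM in TBI animals (-0.36 ± 0.09), with no overlap. BUB1, a mitotic checkpoint kinase, was at 0.739, 1.03, 0.894, 0.960 and 1.33 CPM in controls and 7.32, 2.66, 1.26, 1.22 and 1.46 CPM in TBI animals (1.48 ± 0.46). TBI animal 1 alone was far above the rest, and the fold of BUB1 was 0.72 without it. Of 16 listed genes of senescence and its secreted factors 5 were tested; the lysosomal galactosidase GLB1 differed by 0.10 ± 0.11, LMNB1, the lamin lost in senescence, by -0.12 ± 0.19 and IGFBP3 by 0.33 ± 0.33. IGFBP7, which vessels and choroid plexus express, was at 79.2, 777, 92.8, 34.2 and 51.7 CPM in controls and 53.1, 56.9, 68.4, 71.0 and 61.9 CPM in TBI animals (-1.74 ± 0.77), and differed by -0.06 without control animal 2.

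In the TGF-beta and BMP pathway 16 of 23 genes were higher with a median of 0.08, and members of the BMP branch pointed in both directions. The ligands TGFB1, TGFB2 and TGFB3 differed by -0.17 ± 0.25, 0.22 ± 0.14 and 0.25 ± 0.22. BMP4, a ligand that steers precursors towards glia, was at 1.73, 5.27, 3.38, 1.92 and 1.57 CPM in controls and 1.45, 0.887, 1.36, 0.659 and 0.682 CPM in TBI animals (-1.46 ± 0.48). BMP6, another ligand, was at 2.96, 2.63, 2.58, 3.15 and 2.66 CPM in controls and 5.39, 5.33, 2.62, 4.42 and 3.51 CPM after TBI (0.61 ± 0.23). ID1, a target of BMP signals in vessels and astrocytes, was at 10.5, 12.3, 11.2, 10.6 and 10.1 CPM in controls and 14.7, 17.6, 13.4, 13.6 and 13.4 CPM after TBI (0.41 ± 0.11). BMP4 lay below every control and ID1 above every control, while BMP6 overlapped through TBI animal 3. ID2, a related target, differed by 0.38 ± 0.16. ID1 differed by 0.63 ± 0.24 in prefrontal cortex and 0.49 ± 0.24 in white matter of the same animals.

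Several housekeeping families had small positive differences in most members, while others did not. Splicing factors were higher in 20 of 37 members (median 0.0090), heat shock proteins and chaperones in 34 of 58 (median 0.03) and lysosome genes in 9 of 23 (median -0.03). Genes of glycolysis and the TCA cycle were higher in 20 of 25 members with a median of 0.12. The hexokinases HK1 and HK2 differed by 0.09 ± 0.11 and 0.13 ± 0.21, and the isomerase GPI by -0.06 ± 0.07. LDHA, the lactate dehydrogenase subunit, was at 108, 133, 96.7, 115 and 109 CPM in controls and 142, 133, 127, 148 and 145 CPM in TBI animals (0.31 ± 0.11). IDH3A, of the TCA cycle, was at 169.6, 177, 172, 172 and 178 CPM in controls and 215, 202, 186, 189.9 and 189 CPM after TBI (0.18 ± 0.08). IDH3A did not overlap between the groups, and LDHA did through control animal 2, the highest of the controls. Respiratory complexes II to V had 14 of 19 members higher and a median of 0.09, and complex I 9 of 15 with a median of 0.01; SDHA, SDHB and SDHC differed by 0.15 ± 0.10, 0.01 ± 0.08 and -0.20 ± 0.33, and NDUFA1, NDUFA4 and NDUFA5 by -0.89 ± 0.90, -0.0042 ± 0.12 and 0.30 ± 0.15. NDUFB8, of complex I, and COX6C, of complex IV, were the members at an unadjusted p under 0.05 (0.33 ± 0.14 and 0.23 ± 0.10).

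Mitochondrial ribosome genes were higher in 30 of 39 members (median log2 fold change 0.09), proteasome genes in 27 of 37 (median 0.09), translation factors in 38 of 52 (median 0.05) and ribosomal proteins in 41 of 57 (median 0.08), against 47.1% of all genes tested and a median of -0.01. MRPL1, MRPL10 and MRPL11 differed by 0.19 ± 0.11, -0.10 ± 0.11 and 0.02 ± 0.12, and PSMA1, PSMA2 and PSMA3 by 0.23 ± 0.14, 0.14 ± 0.10 and -0.01 ± 0.09. EEF1A1, EEF1A2 and EEF1AKMT1 differed by 0.08 ± 0.12, 0.01 ± 0.08 and 0.05 ± 0.10, and RPL10, RPL10A and RPL12 by 0.06 ± 0.08, 0.12 ± 0.10 and 0.15 ± 0.12. The translation factors were drawn by symbol pattern, so their count includes EEF1AKMT1, an enzyme that modifies EEF1A and is not itself such a factor. PSMD14, the deubiquitinase of the proteasome lid, was at 133, 140.5, 116, 113 and 128 CPM in controls and 153, 141, 143, 151 and 147 CPM in TBI animals (0.22 ± 0.08), and the highest control, animal 2, lay just below the lowest TBI animal, also animal 2. At an unadjusted p under 0.05 stood 3, 4, 4 and 3 higher members of the 4 families. Those are 7.69%, 10.8%, 7.69% and 5.26% of the members, against 4.8% of all genes. Without control animal 2 the counts were 11, 13, 8 and 8, and over all genes the higher count also went from 737 to 1079. Without control animal 3 the counts were 3, 2, 2 and 0 (613 over all genes) and the medians 0.03, 0.05, 0.03 and 0.03. These sizes are below the SE of most single members. RPLP2, named above, went against its family.

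**Figure D4:**
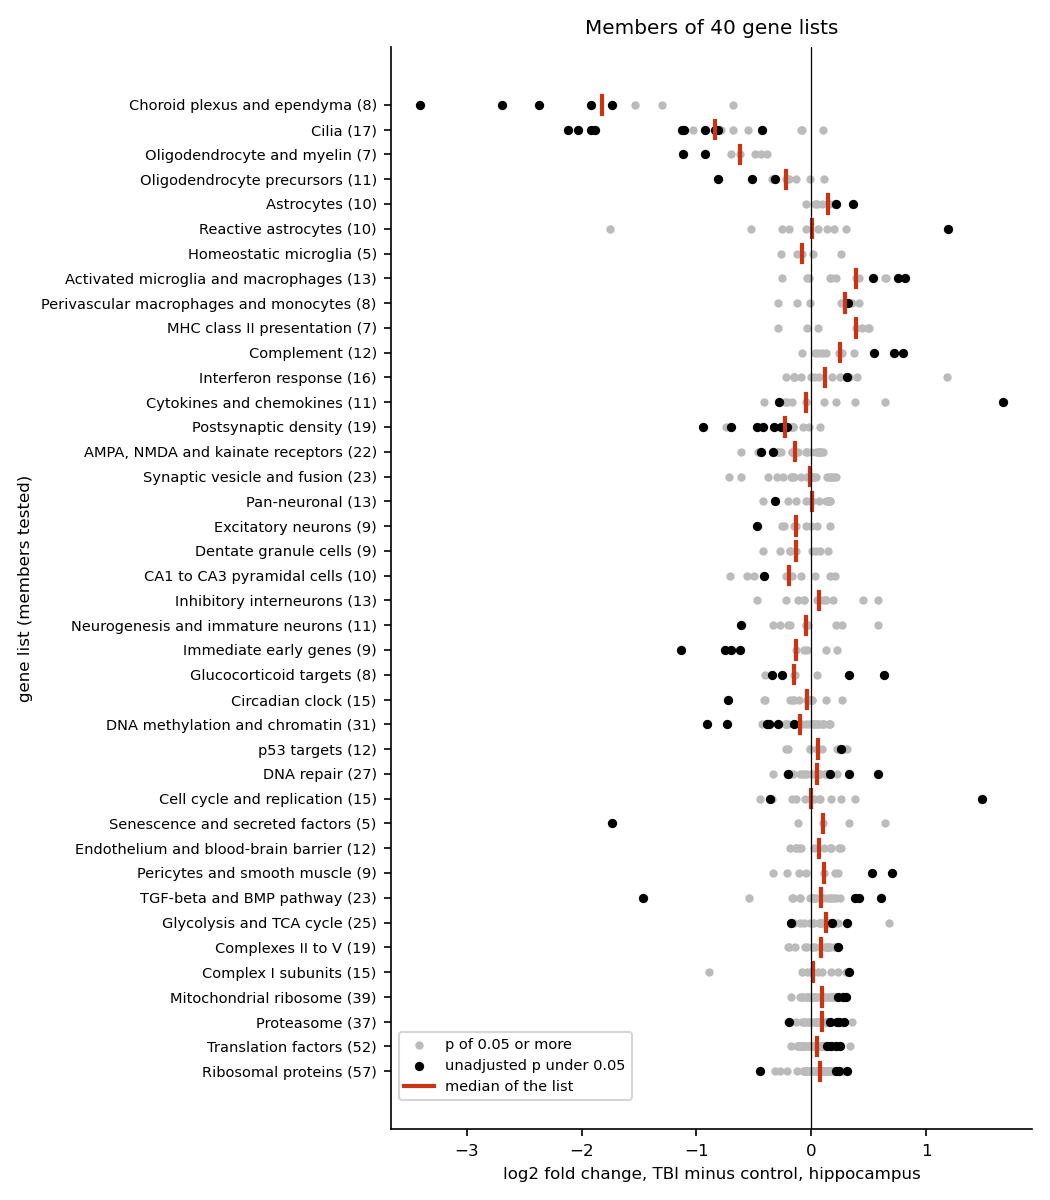
Each row is a gene list with the number of members tested; points are the log2 fold changes of its members (black at an unadjusted p under 0.05, grey otherwise) and the vertical bar is the list's median. All members of the choroid plexus and myelin lists lie to the left of 0. The cilia and postsynaptic density lists lie to the left with 1 member each above 0. Choroid plexus, cilia and myelin lists have the lowest medians, and the activation, complement and MHC class II medians lie to the right.

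Single animals moved most of these medians. Of the 40 lists in the plot of list members, 13 had a median that changed sign when 1 animal was left out, and 26 others kept the sign but moved by more than 1.5 times. The TGF-beta and BMP list moved less (0.06 to 0.11). By animal, a change of sign or of more than 1.5 times was seen in 25 lists without control animal 2, 22 without control animal 3, 20 without control animal 4 and 20 without control animal 5. Without TBI animals 1 to 5 it was seen in 12, 11, 15, 11 and 9 lists, and without control animal 1 in 10.

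Whether the TBI effect differed between regions was tested with an interaction term over all 45 libraries with animal as a block. Of 16614 genes, 0 (0%) differed between hippocampus and prefrontal cortex at an adjusted p of 0.05 in edgeR's test, with 434 at an unadjusted p under 0.05; DESeq2's size factors in that fit also gave 0. Between hippocampus and white matter 1 gene differed (0.00602%), with 2408 at an unadjusted p under 0.05. That gene has no symbol in the table used and differed through white matter (log2 fold change 2.03) rather than hippocampus (-0.09). None of the 30 genes named above passed either interaction test, so their values are not shown to be particular to hippocampus. In prefrontal cortex RBM46 differed by 2.86 ± 0.66, TDP2 by 0.31 ± 0.09, NMD3 by 0.30 ± 0.10 and PER2 by -0.65 ± 0.22. In white matter TLR8 differed by 1.06 ± 0.23, PER2 by -0.62 ± 0.20 and OXR1 by -0.60 ± 0.32.

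TBI and fWBI hippocampus, compared directly, differed in 52 of 15357 genes at an adjusted p of 0.05 in edgeR's test (0.339%). Of the 30 named genes RBM46 was among them: TBI minus fWBI was 1.56 ± 0.27 (edgeR adjusted p = 0.0134), and the fWBI libraries held 2.12, 2.52, 2.44, 1.87 and 2.52 CPM. RBM46 had been chosen on the same TBI libraries. The other 29 genes did not pass, which does not show that the 2 exposures act alike. Against the controls, which both irradiated groups share, TLR8 differed by 0.96 ± 0.23 after TBI and by 1.28 ± 0.23 after fWBI. LGR4 differed by 0.35 ± 0.08 and 0.41 ± 0.08, CACNB1 by -0.34 ± 0.08 and -0.47 ± 0.08, and HDAC10 by -0.50 ± 0.12 and -0.16 ± 0.12. Dose, fractions and time since exposure all differ between the 2 irradiated groups and cannot be told apart.

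**Figure D5:**
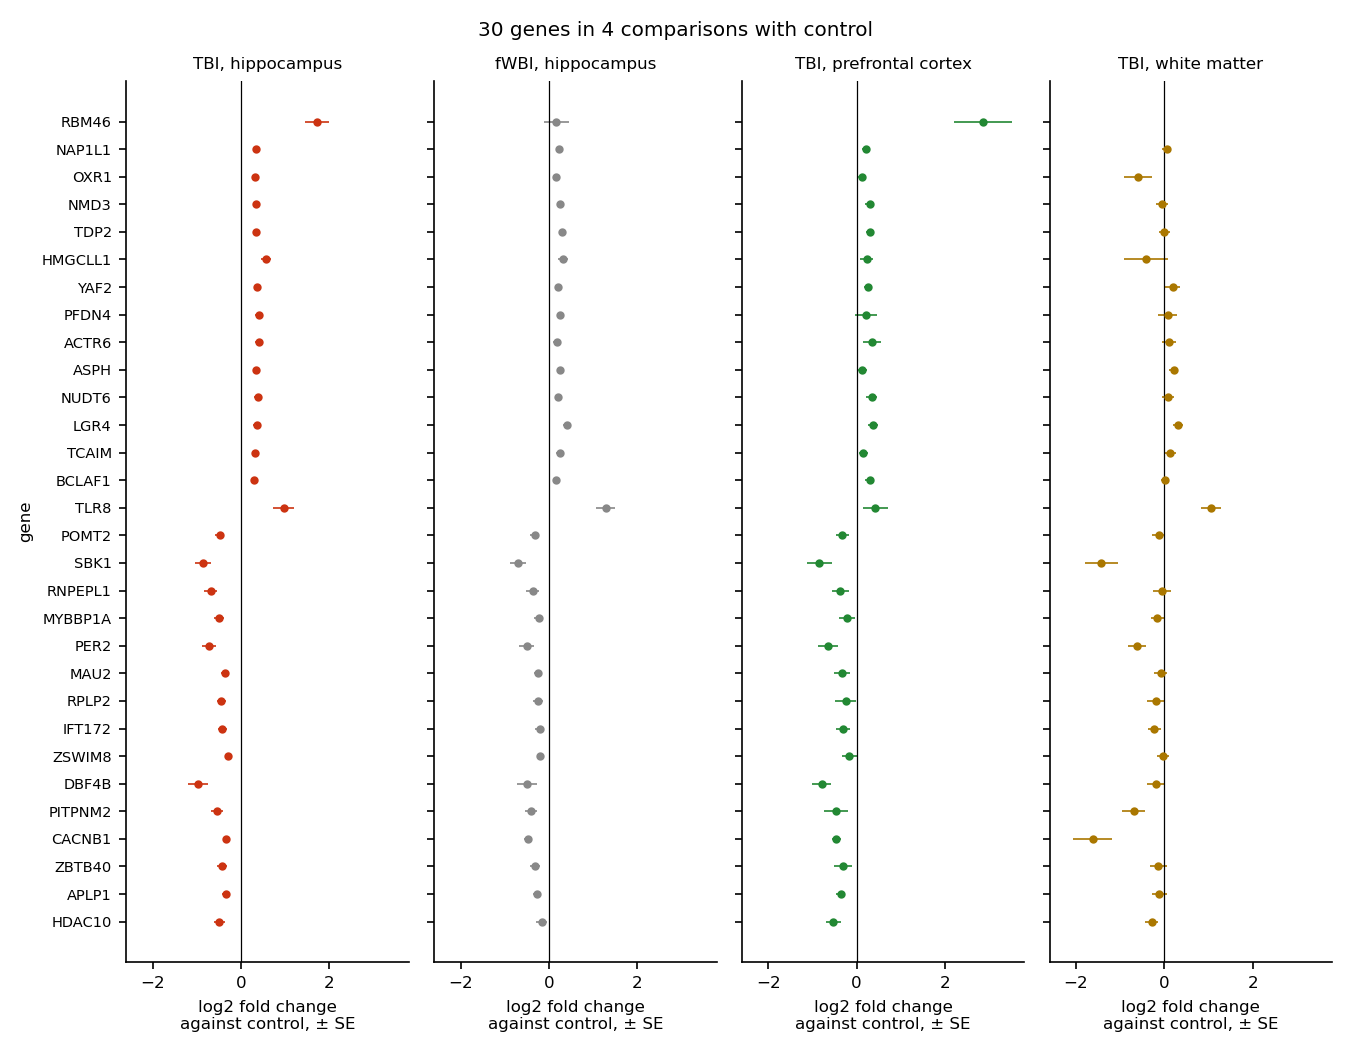
The 30 named genes are shown with log2 fold change against control and SE for TBI hippocampus, fWBI hippocampus, TBI prefrontal cortex and TBI white matter, on 1 shared x axis. Genes were chosen for small p in the first panel only; the hippocampus panels share their control libraries, and RBM46 in white matter is blank because it was not tested there.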

How the data were processed

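Whole-tissue RNA from 15 hippocampi was sequenced as total RNA after ribosomal depletion with a stranded kit, per the labels' protocols. The authors deposited raw read counts per Ensembl gene for all 45 libraries. Tools listed without roles in the submitters' processing notes are STAR, featureCounts, DESeq2 and FastQC. Which versions, build, gene models and strand option were used is not given in the sources used here. Symbols came from a table pairing gene IDs with names: 15769 of 30246 genes had one, and 11435 of the 15357 tested.

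Genes with enough counts by edgeR's filter (edgeR 4.0.16, limma 3.58.1, R 4.3.3) were tested with its quasi-likelihood test on the 15 hippocampus libraries, with TMM scaling and Benjamini-Hochberg adjustment, for TBI minus control. CPM are counts scaled to the TMM-adjusted library size. Groups came from the titles; no label says that libraries are technical repeats, and no pair of libraries of a group agreed within sampling noise. Genes were named as the 15 with the smallest p in each direction that had a symbol, at least 1 CPM on average and every TBI library on one side of the control mean. In each list of at least 5 tested members the first 3 were taken as examples, except that some genes are not reported here. The gene lists and members were chosen with earlier results of these data known. Lists got no test, only counts and medians, and some genes belong to more than 1 list. Alternatives were DESeq2 1.42.0, limma-voom, other scaling and filters, covariates, a replicate block and leaving out animals. The interaction between regions used all 45 libraries with animal as a block. Same-numbered control and TBI animals are different animals; their deviations from the group means correlated at -0.18 to 0.03. Scripts were tested on simulated counts.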

Additional observations from a re-analysis of the deposited data

Results flagged for a closer look

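Of 140 groups of 5 libraries examined (the 30 named genes and 40 gene lists, in controls and in TBI animals), 5 had a library far from its own group, with a gap to the nearest other library of more than 0.71 of the group's range. Chance flags about 1 group in 20. NMD3, the ribosome export adaptor, was lowest in TBI animal 4 (log2 CPM 6.73 against 6.81 to 6.83, a gap of 0.784 of the range), so its 4 other TBI values were nearly equal. DBF4B, the CDC7 partner, was lowest in TBI animal 2 (log2 CPM 0.905 against 1.55 to 1.75, 0.771 of the range). CACNB1, the calcium channel subunit, was lowest in control animal 2 (5.83 against 6.14 to 6.23, 0.762 of the range). The mean of the Circadian clock list was also lowest in control animal 2 (5.04 against 5.32 to 5.40, 0.791 of the range). The mean of the Proteasome list was highest in TBI animal 4 (5.84 against 5.78 to 5.80, 0.714 of the range). The gene ENSMMUG00000000976, which has no symbol in the table used, was the 1 gene whose TBI effect differed between hippocampus and white matter. The difference of the effects was -2.13 on the log2 scale (SE 0.357, edgeR adjusted p = 0.0299).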

How the results depend on the processing

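The count of genes past an adjusted p of 0.05 was 0 with edgeR's quasi-likelihood test. It was 60 with DESeq2's test, 1 with limma-voom and 3 with the mean of the choroid plexus list as a covariate; the cause was not tested. Leaving out each animal in turn gave 0 to 3 genes: 3 without control animal 2, 1 without TBI animal 5 and 0 otherwise. Genes at an unadjusted p under 0.05 then numbered 1302 to 2440. Of these 613 to 1079 were higher and 687 to 1361 lower, against 737 and 924 in the fit with all animals. When all 45 libraries entered 1 fit, 434 were higher; the cause was not tested. DESeq2's size factors, upper-quartile scaling, no filter, a mean of at least 50 counts, the 10 libraries alone, the myelin and dentate covariates and the added alternatives (without control animals 2 and 3, and with both covariates) gave 0 genes. With the replicate number as a block 0 genes passed and 1517 stood at an unadjusted p under 0.05; the numbers pair no animals. The interaction counts stayed at 0 and 1 with no animal block and with DESeq2's size factors. Of 716 alternative values of the named genes none reversed and 686 stayed on their side of the threshold, while 30 passed it. Of 960 alternative list medians 10 moved by more than 1 SD of the list's mean log2 CPM over the 5 controls. Among them were cytokines and chemokines (-0.24 with a mean of at least 50 counts, 0.10 without control animal 4) and resting microglia (0.09 without control animal 3). Control animals that stand apart widen that SD, so the other medians are not shown to be stable. For choroid plexus the SD was 1.76, and the move from -1.83 to -0.45 without control animal 2 was not counted. For myelin it was 0.78, and the move from -0.62 to -0.0037 without control animals 2 and 3 was not counted. Leaving out 1 animal changed the sign of 13 of 40 list medians. The median SE over all genes was 0.151.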

Other observations

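Transporters and ion channels had further values. Among 228 tested solute carriers 16 were higher at an unadjusted p under 0.05 (7.02%, against 4.8% of all genes). At the same p 9 were lower (3.95%, against 6.02%). From the controls 9 were separated upwards and 0 downwards, where 1.39% and 0.886% of all genes were. SLC15A2, a peptide transporter of astrocytes, differed by 0.39 ± 0.12, SLC17A5, the sialic acid exporter of lysosomes, by 0.32 ± 0.08, and SLC7A11, the cystine transporter that feeds glutathione synthesis, by 0.34 ± 0.11. SLC30A9, a zinc transporter, differed by 0.30 ± 0.09 and SLC25A24, a mitochondrial carrier, by 0.47 ± 0.16. These 5 lay above every control. SLC7A11 was at 84.3, 80.3, 81.4, 78.2 and 63.8 CPM in controls and 103, 101, 95.0, 88.3 and 104 CPM in TBI animals. Among the lower carriers SLC47A2 differed by -1.85, SLC16A11 by -1.78 and SLC16A12 by -1.48. Without control animal 2 SLC16A11 differed by -1.12 and SLC16A12 by -0.44. Of 44 tested potassium channel genes 29 were lower (65.9%, against 52.9% of all genes). Of these, 5 stood at an unadjusted p under 0.05 (11.4% of the 44, against 6.02% of all genes). Without control animal 2 the count was 10, and over all genes the lower count went from 924 to 1361. KCNH2, the ERG channel, differed by -0.42 ± 0.15 and lay below every control. KCNJ16, an inward rectifier of astrocytes, differed by 1.14 ± 0.37 and KCNC2, of fast-spiking neurons, by 0.33 ± 0.11. Sodium and calcium channel genes were lower in 15 of 20 members (median -0.18, -0.35 without control animal 2 and -0.07 without control animal 4). Axon guidance genes were lower in 25 of 39 (median -0.12, -0.18 without control animal 2 and -0.04 without control animal 5). The serotonin receptors HTR1A and HTR2A differed by -0.40 ± 0.16 and -0.50 ± 0.23.

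A few growth factor and matrix genes had low values. Of 22 tested genes of neuropeptides and trophic factors 14 were higher and 8 lower, with a median of 0.09. At an unadjusted p under 0.05 stood 3 lower members (13.6%, against 6.02% of all genes) and 0 higher. VGF, a neuronal secreted protein induced by neurotrophins, was at 11.8, 11.6, 23.4, 19.3 and 22.1 CPM in controls and 11.4, 10.4, 13.8, 14.6 and 11.8 CPM in TBI animals (-0.51 ± 0.21). VEGFA, the vascular growth factor, differed by -0.47 ± 0.22 and NTF3, neurotrophin 3, by -0.80 ± 0.36. Collagen genes were lower in 15 of 18 members (median -0.10, -0.17 without TBI animal 4 and -0.03 without control animal 3); COL15A1, of basement membranes, differed by -0.91 ± 0.37 and COL6A2 by 0.48 ± 0.19. After fWBI the collagen median was 0.52 against the shared controls. The genes of this section were chosen after their values were seen, and none passed an adjusted p of 0.05 in edgeR's test.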
